A study of Mus musculus with 2 samples.

Results

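The cells described here are the basophils of imiquimod (IMQ)-treated mouse dermis, chosen from 1 single-cell RNA library by their UMI counts. A UMI (unique molecular identifier) marks 1 captured transcript. Among cells with 200 to 5000 detected genes and no more than 10% of UMIs from mitochondria, those were taken that held at least 3 UMIs of *Mcpt8*, whose *Mcpt8* exceeded the sum of the mast cell genes *Cma1*, *Mcpt4* and *Tpsb2*, and in which the macrophage genes *C1qa*, *C1qb* and *C1qc* together stayed under 20 per 10000 UMIs of the cell. The rule found 234 cells among 4721 dermal cells that passed the filters, a share of 4.96% (95% Clopper-Pearson interval 4.35 to 5.61), out of 5376 dermal barcodes and 10634 barcodes in both libraries. A transcript of *Ptprc*, which encodes CD45, was not required, and 84 of the 234 cells had one.

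Imiquimod, a Toll-like receptor agonist given as a cream, produces psoriasis-like inflammation in mouse skin. The labels give wild-type C57BL/6 mice of 10 weeks that received it for 5 consecutive days on the ear, and both the dermal and the epidermal library come from this treatment, and no untreated library was analysed here. The methods of the study give a different age for mice of this model. The layers were digested apart, and live cells were sorted. The methods of the study state that the dermal sort kept CD45+ cells and the epidermal one all live cells, so the share of basophils in each library depends on the sort. Each layer is 1 library, and the number of mice behind it is not given in the sources used here. Differences between libraries and between groups of cells are therefore given as values with intervals for counting error only, without a test. The dermal library held 41258087 UMIs and the epidermal library 108768396. The median basophil held 4533 UMIs of 1284 genes, against 7251 UMIs in the other dermal cells. The libraries shared 45 barcodes, 3 of them on dermal basophils and 0 on basophils of both.

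Basophils are the rarest granulocytes of the blood and enter tissue during inflammation. They carry the high-affinity IgE receptor, store histamine and proteases in granules, and are known as rapid producers of interleukin-4 (IL-4). They share most of this equipment with mast cells, which mature in the tissue and depend on the receptor KIT. In the mouse, the protease MCPT8 is used to mark basophils, whereas mast cells of connective tissue carry the chymases CMA1 and MCPT4 and the tryptase TPSB2. The transcription factor GATA2, which binds DNA at GATA motifs, is needed by both lineages.

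Promoter sequences of the gene that chose the cells and of 4 genes with most of their dermal UMIs in basophils are shown as examples. Each runs from 250 bases before to 50 after the start site, 5′ to 3′ on the gene's strand, in RefSeq's annotation of GRCm38.p6. Capitals mark the motif AGATAA, searched on both strands, where the reverse strand reads TTATCT.
Mcpt8 (chr14:56085148-56085447, minus strand): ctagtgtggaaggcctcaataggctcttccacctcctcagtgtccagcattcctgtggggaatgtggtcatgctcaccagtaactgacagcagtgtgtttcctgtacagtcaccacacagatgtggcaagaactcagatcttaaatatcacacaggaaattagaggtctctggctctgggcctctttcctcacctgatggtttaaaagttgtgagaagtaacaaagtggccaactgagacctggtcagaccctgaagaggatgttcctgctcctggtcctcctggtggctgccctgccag
Ms4a2 (chr19:11623670-11623969, minus strand): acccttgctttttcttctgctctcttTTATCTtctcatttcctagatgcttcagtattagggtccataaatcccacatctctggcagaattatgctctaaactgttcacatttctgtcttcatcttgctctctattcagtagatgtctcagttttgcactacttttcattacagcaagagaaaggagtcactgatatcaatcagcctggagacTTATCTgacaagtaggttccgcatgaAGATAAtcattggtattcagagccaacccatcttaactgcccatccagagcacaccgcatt
Fcer1a (chr1:173227180-173227479, minus strand): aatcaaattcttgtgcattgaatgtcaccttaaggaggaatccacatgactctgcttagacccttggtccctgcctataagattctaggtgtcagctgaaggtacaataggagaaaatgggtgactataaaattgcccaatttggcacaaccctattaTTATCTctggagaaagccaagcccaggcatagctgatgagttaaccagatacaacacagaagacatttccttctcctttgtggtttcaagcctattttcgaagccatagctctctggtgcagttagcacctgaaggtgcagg
Cd200r3 (chr16:44943428-44943727, plus strand): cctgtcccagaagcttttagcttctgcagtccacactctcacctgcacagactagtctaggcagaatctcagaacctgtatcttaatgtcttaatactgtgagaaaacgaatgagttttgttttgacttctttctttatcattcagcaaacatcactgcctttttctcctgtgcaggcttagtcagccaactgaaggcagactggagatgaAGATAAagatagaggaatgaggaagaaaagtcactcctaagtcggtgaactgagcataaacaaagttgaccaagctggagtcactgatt
Prss34 (chr17:25298144-25298443, plus strand): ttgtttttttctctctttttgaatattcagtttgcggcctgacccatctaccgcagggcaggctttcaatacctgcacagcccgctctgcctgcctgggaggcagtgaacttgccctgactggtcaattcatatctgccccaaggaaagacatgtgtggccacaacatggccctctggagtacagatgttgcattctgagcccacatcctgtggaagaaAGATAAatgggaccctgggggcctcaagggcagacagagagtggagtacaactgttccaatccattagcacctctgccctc

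The promoter of *Ms4a2* held 3 such motifs, at 224, 37 and 11 bases before the start site. *Fcer1a* had 1 at 92 bases before the start, *Cd200r3* 1 at 39 and *Prss34* 1 at 31. The window of *Mcpt8* held none, nor did those of *Gata2*, *Il4*, *Csrp3*, *Fam110c*, *Asb2* and *Cyp11a1*. The 4 genes shown beside *Mcpt8* all hold the motif, but other genes without it were not printed, so this follows from the choice shown. *Grm6*, not shown, held 2, at 133 and 114 bases before the start. *Il4*, which also has most of its dermal UMIs in basophils, held none. By comparison, 11.2% of all 32851 promoter windows held the motif. Counted by gene, with a hit in any window sufficing, 2 of the 5 marker genes held it. So did 4 of the 9 genes with a window among the 10 that stood farthest above the other dermal cells. Some of these genes have 2 windows, so the counts by gene and the share of all windows are unlike measures. The window of *Cpa3*, a gene with far more UMIs in mast cells than in basophils, also held 1, at 46 bases before the start. A match of these letters is a description of the sequence and does not show that a factor binds there.

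*Mcpt8* (chromosome 14, 56082166 to 56085273, minus strand) chose the cells, so its level describes the selection. The lowest member had 3 *Mcpt8* UMIs, the median 20 and the highest 318. The 4 other markers, *Ms4a2*, *Fcer1a*, *Gata2* and *Il4*, played no part in the rule. All 4 had a UMI in 64 of the 234 cells, 3 of them in 105, 2 in 48, 1 in 11 and none in 6. At least 2 of them were found in 92.7% of the cells, so the label fits most members. The weakest cells lay at the threshold. Of the 16 cells with exactly 3 *Mcpt8* UMIs, 56.3% had 2 or more of the 4 markers, compared with 10.5% of the 76 cells just outside with 2 UMIs and 97.7% of the 43 cells with 5 to 9. Outside the rule, 47 cells had 3 or 4 of the 4 markers, 27 of them in the mast cell gate described next. Mast cells also carry these markers, so those 27 cannot be counted as basophils that the rule missed.

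**Figure D1:**
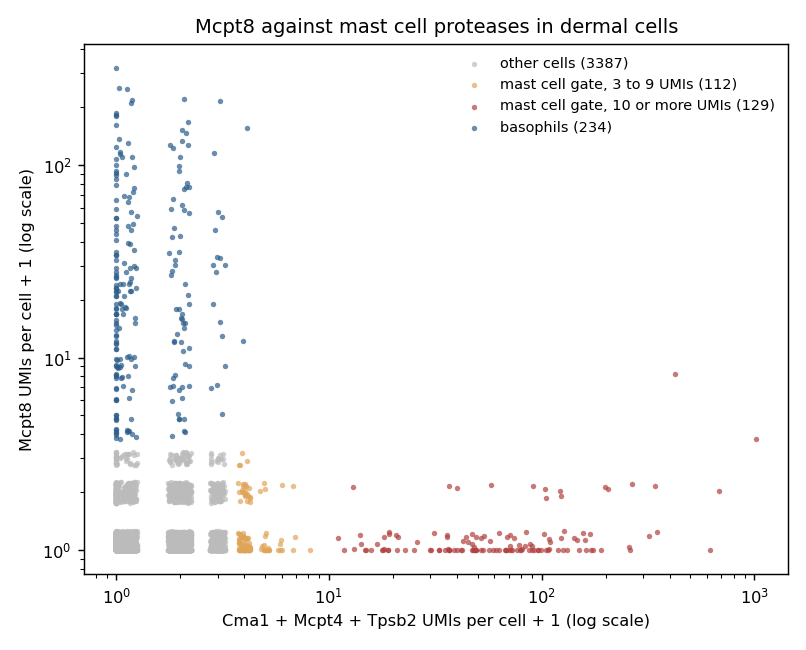
Each point is 1 dermal cell with C1q genes under 20 per 10000 UMIs, with its *Cma1*, *Mcpt4* and *Tpsb2* UMIs on the horizontal axis and its *Mcpt8* UMIs on the vertical axis, both plus 1 on log scales and with a small random shift. The 234 basophils rise along the left edge up to 318 *Mcpt8* UMIs, the 129 cells with 10 or more mast cell UMIs spread along the bottom, and the 112 cells with 3 to 9 lie between them and the other cells.

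The other dermal cells were divided by gates on marker UMIs, which are ranges of counts and not clusters. The mast cell gate took 241 cells with at least 3 UMIs of *Cma1*, *Mcpt4* and *Tpsb2* together. It was a mixture: 112 of its cells had only 3 to 9 such UMIs, a median of 11467 UMIs in all, *Kit* in 1.79% of cells, and 88.2% of the gate's UMIs, but 2.92% of its mast cell protease UMIs. The other 129 cells had at least 10, with *Kit* in 28.7% of cells and a median depth of 875 UMIs. Values are therefore given for the cells with at least 10, called mast cells from here on, and for the whole gate where the order of a named gene turned, and for some others. The mast cells were much shallower than the basophils, and their values carry wider intervals.

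The IgE receptor genes *Ms4a2* and *Fcer1a* were far higher in basophils and mast cells than in the other dermal cells, unlike *Fcer1g*. Levels are UMIs summed over a group per 1000000 UMIs of that group (CPM), with exact Poisson intervals. *Ms4a2*, which encodes the receptor's β chain (chromosome 19, 11615523 to 11623719), stood at 323 CPM in basophils, 288 in mast cells and 3.33 in all other dermal cells, mast cells included. The ratio of basophils to mast cells was 1.12 (95% interval 0.850 to 1.499). *Fcer1a*, the IgE-binding α chain (chromosome 1, 173221284 to 173227214), stood at 600 CPM in basophils and at 1513 in mast cells, 2.52-fold higher there (2.20 to 2.88). *Gata2* was at 778 CPM in basophils, 576 in mast cells and 10.6 in the other dermal cells. The γ chain gene *Fcer1g*, which other Fc receptors share, was at 2993 CPM in basophils, 3507 in the other dermal cells and 5741 in mast cells. Against the whole mast cell gate, the *Ms4a2* ratio was 9.03, the *Gata2* ratio 10.4 and the *Fcer1a* ratio 3.31, so the order of *Fcer1a* turned with the choice of mast cells.

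Of the list of 21 IgE receptor and signalling genes, 21 were measured with enough UMIs (at least 50 over both groups) against the other dermal cells. Of these 7 were over 2-fold higher in basophils, where 9.23% of all 11629 genes were, and 4 over 2-fold lower, where 27.9% of all genes were. The 7 included *Lat2*, a membrane adaptor of IgE receptor signalling, at 523 CPM against 70.1. The 4 lower genes were *Fcgr2b*, *Fcgr4*, *Lyn* and *Grap2*. The median log2 ratio of the list was −0.12, and that of all genes −0.40. Against mast cells, 1 of 14 measured genes was over 2-fold higher and 1 lower (*Fcer1a*), where 19.2% and 16.7% of all 2657 genes were. Against the whole mast cell gate, 7 of 19 were higher and 1 lower, where 10.7% and 21.4% of all genes were.

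Granule genes divided basophils from mast cells. *Prss34*, which encodes a basophil tryptase also known as mMCP-11, had 850 UMIs in basophils, and the 234 cells held 89.0% of all *Prss34* UMIs of the dermal library. They were unevenly spread, since 58 basophils had any and 5 cells held 54.0% of them. *Cpa3*, the granule carboxypeptidase, stood at 393 CPM in basophils and at 13284 in mast cells, 33.8-fold higher there (30.6 to 37.3). *Tpsab1*, a tryptase outside the rule, had 2 UMIs in basophils and 109 in mast cells. *Kit* had no UMI in the 234 basophils, which by counting error allows up to 1.28% of cells with a UMI, not of cells expressing the gene, and a level of up to 2.501 CPM. Mast cells had 225 CPM of *Kit*, at least 89.8-fold higher. *Srgn*, the proteoglycan core that holds proteases in granules, was at 5659 CPM in basophils and 6215 in mast cells, but at 2171 in the whole gate. The chymase *Cma1*, which the rule limited, had a UMI in 23.5% of basophils and in 30.4% of cells of the neutrophil gate, which should lack it, with median depths of 4533 and 6914 UMIs. Its low level in basophils follows from the rule. Against mast cells, 14 of the listed granule genes were measured, with the genes of the rule included. Of these 4 were over 2-fold higher and 8 lower (all genes 19.2% and 16.7%), *Mcpt8* among the higher and *Cma1*, *Mcpt4* and *Tpsb2* among the lower. Leaving out the 4 genes of the rule, 12 of the listed granule genes were measured against the other dermal cells, with 7 over 2-fold higher and 3 lower (all genes 9.23% and 27.9%).

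Genes of histamine and lipid mediator synthesis were also found in basophils. *Hdc*, histidine decarboxylase, was found in all 234 basophils at 4886 CPM, against 1714 in mast cells, 314 in the neutrophil gate and 132 in all other dermal cells, and basophils held 53.9% of its dermal UMIs. *Alox15*, a lipoxygenase, had 252 UMIs in 129 basophils and none in mast cells, a ratio of at least 14.3 set against 3 counts over the group. Basophils held 77.5% of its dermal UMIs. *Alox5* and its partner *Alox5ap*, which start leukotriene synthesis, stood at 120 and 2650 CPM in basophils and at 4.88 and 557 in mast cells, whereas *Ltc4s*, which makes the cysteinyl leukotriene LTC4, had 1 UMI in all basophils. *Cyp11a1*, the side-chain cleaving enzyme that begins steroid synthesis, was at 908 CPM in basophils, 381 in mast cells and 10.7 in the other dermal cells. *Slc18a2*, which loads histamine into granules, was at 51.7 CPM in basophils and 215 in mast cells, but at 25.9 in the whole gate, so its order turned with the choice of mast cells. Of the 18 genes of this list, 17 were measured against the other dermal cells, 7 being over 2-fold higher and 6 lower (all genes 9.23% and 27.9%), so that the lower share was near that of all genes.

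**Figure D2:**
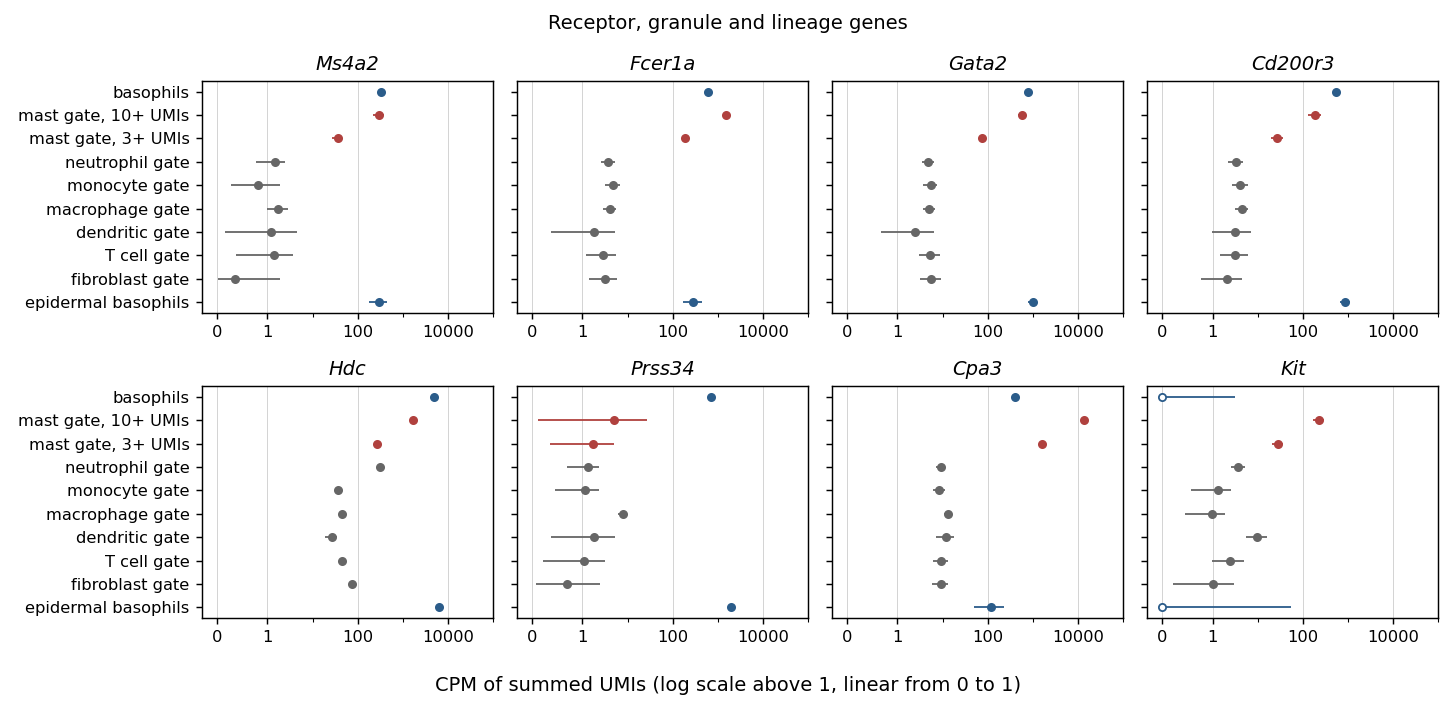
Points give the CPM of 8 genes in summed UMIs of each group of cells, with 95% Poisson intervals, on a log scale above 1 CPM. Open points are groups with no UMI. *Ms4a2*, *Gata2* and *Fcer1a* stand high in basophils and mast cells, *Prss34* in basophils of both layers, *Cpa3* and *Kit* in mast cells, and *Kit* has no UMI in basophils.

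*Il4*, the type 2 cytokine for which basophils are known, had 464 UMIs in the 234 cells, 76.7% (73.1 to 80.0) of all *Il4* UMIs in the dermal library. The gene lies on chromosome 11, 53602982 to 53618669, minus strand. Its level was 387 CPM (352 to 424) in basophils and 3.70 in the other dermal cells. The neutrophil gate had 1.67 CPM, the macrophage gate 1.75 and the T cell gate 0.705. The cells that met no gate had 5.20 CPM, and 13 of them had at least 3 of the 4 other basophil markers. Mast cells reached 298 CPM, so the ratio of basophils to mast cells was 1.30 (0.993 to 1.73) and not separable from 1 by counting error. It was 10.3 (7.95 to 13.6) against the whole mast cell gate, whose added cells gave 4 *Il4* UMIs and most of its total. Basophils thus held most of the *Il4* UMIs of this library, but their level per UMI was not shown to differ from that of mast cells.

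Within the basophils, *Il4* was present in 132 cells, and a single cell had 61 UMIs. The 5 richest cells held 33.0% of the total, and without the richest cell the level was 338 CPM. After each cell was thinned to 1000 UMIs, which 231 basophils had, 23.4% (18.1 to 29.4) had an *Il4* UMI. The share was 16.3% of 49 mast cells, 0.281% of the neutrophil gate and 0.238% of the macrophage gate, the last 2 showing the background in cells that should lack the gene. *Il13* (chromosome 11, 53631324 to 53634702), its neighbour and relative, was at 150 CPM in basophils and 43.9 in mast cells, with an interval of 1.76 to 7.59 for the ratio. This level came from few cells. Only 32 basophils had any *Il13*, 1 cell had 92 UMIs, and 5 cells held 72.2%. *Il5*, another gene of the same locus, had no UMI in basophils.

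*Il6*, which encodes a pleiotropic inflammatory cytokine (chromosome 5, 30013114 to 30019981), was much higher in basophils than in any other gate. Its level was 2200 CPM (2117 to 2286) in basophils, 68.3 in mast cells, 104 in the cells that met no gate, 64.0 in the fibroblast gate, 33.9 in the neutrophil gate, 32.8 in the monocyte gate and 17.1 in the macrophage gate. Basophils, 4.96% of the cells, held 63.3% (61.8 to 64.7) of the dermal *Il6* UMIs. The ratio to mast cells was 32.2 (19.2 to 59.0), and 35.0 to the whole gate. The mast cell level rested on 14 UMIs, 7 of them in 1 cell and 85.7% in 5 cells. With *Mcpt8* at 2 or more UMIs, the ratio to the whole gate was 22.3. *Il6* was found in 178 of 234 basophils with a median of 3 UMIs over all members and a highest count of 198. At 1000 UMIs per cell, 50.6% of basophils had an *Il6* UMI, against 2.04% of mast cells, 1.97% of the neutrophil gate and 1.55% of the macrophage gate. Only 49 mast cells were deep enough for this share. The level was 1610 CPM in the 84 basophils with a *Ptprc* UMI and 2556 in the cells with at least 10 *Mcpt8* UMIs.

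Among further cytokine and growth factor genes, 4 stood higher in basophils than in the other gates. *Osm*, which encodes oncostatin M of the IL-6 family, was at 1063 CPM in basophils, 63.5 in mast cells and 89.0 in the neutrophil gate, a cell type known to make it. *Lif*, of the same family, stood at 148 CPM, although in only 53 basophils. *Hgf*, hepatocyte growth factor, was at 237 CPM in basophils and at 4.20 in the other dermal cells, and basophils held 64.0% of its UMIs. *Csf1*, the macrophage growth factor, was at 324 CPM, against 103 in mast cells, 69.9 in the fibroblast gate and 45.3 in the neutrophil gate. Others did not. *Areg* was found in 7 basophils and *Tnf* in 39, and *Csf2* was at 25.01 CPM against 103 in mast cells and 13.8 in the whole gate.

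Chemokine genes were abundant. The 234 basophils held 47.3% of the dermal UMIs of *Ccl6*, 32.3% of *Ccl3*, 31.1% of *Ccl4* and 29.2% of *Ccl9*, all ligands of the CC family. *Ccl3* was at 10820 CPM in basophils, 1466 in the neutrophil gate and 493 in mast cells, and was detected in 232 of the 234 cells. *Ccl6* was at 18141 CPM in basophils, 1021 in the neutrophil gate and 371 in mast cells. The monocyte attractants *Ccl2* and *Ccl7* went the other way, with 39.2 and 73.4 CPM in basophils and 2768 and 12889 in mast cells. *Il1b* and *Cxcl2*, by contrast, were highest in the neutrophil gate (3019 and 5917 CPM, against 2140 and 3584 in basophils). Of the 41 genes in the cytokine and chemokine list, 35 were measured against the other dermal cells, of which 13 were over 2-fold higher in basophils and 12 lower (all genes 9.23% and 27.9%). Against mast cells, 20 were measured, 12 being higher and 3 lower (all genes 19.2% and 16.7%), and *Il4* was among the 5 within 2-fold.

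**Figure D3:**
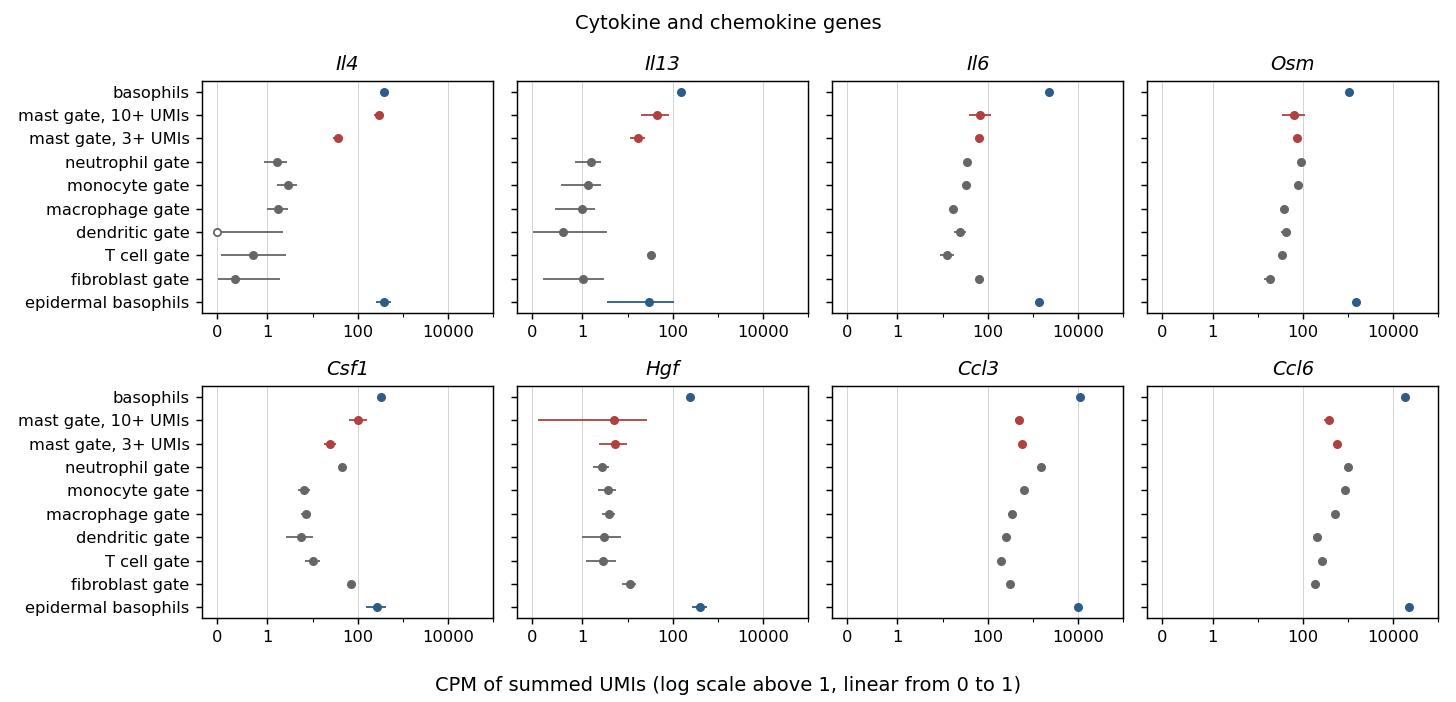
Points give the CPM of 8 cytokine and chemokine genes in summed UMIs of each group of cells, with 95% Poisson intervals, on a log scale above 1 CPM. *Il4* stands at a similar level in basophils and in mast cells with 10 or more UMIs, whereas *Il6*, *Osm*, *Hgf*, *Ccl3* and *Ccl6* stand 10-fold or more above both mast cell groups.

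Heat shock and immediate early genes, which respond to enzymatic digestion of tissue, were also high in the basophils. Of the 20 genes in this list, 14 were over 2-fold higher in basophils than in the other dermal cells, and 0 were lower, where 9.23% of all genes were higher and 27.9% lower. Their summed level was 55933 CPM in basophils, 20637 in mast cells and 17399 in the other dermal cells. It was 23375 CPM in basophils chosen by the same rule from the epidermal library and 7360 in the other epidermal cells. *Hspa1a*, an inducible HSP70 gene and the most abundant of them in basophils, was at 13378 CPM against 4882, and *Dnajb1*, its co-chaperone, at 3814 against 228. *Hspa1a* has a near-identical neighbour, *Hspa1b*, so the split of reads between them is uncertain. *Fos* differed little (781 against 698 CPM). The part of digestion in the levels of *Il6*, *Il4*, *Osm* and the chemokines was not tested.

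The cytokine transcripts were not spread alike over the basophils. At 1000 UMIs per cell, *Osm* had a UMI in 65.0% of the 117 cells with *Il6* and in 36.8% of the 114 without, and *Dnajb1* in 73.5% and 52.6%. *Il6* was found in 53.7% of the 54 cells with an *Il4* UMI and in 49.7% of the 177 without. Among the 14 cells with *Il13*, 12 had *Il6* and 8 had *Il4*. Summed over the thinned cells, *Il6* was 1.65-fold (1.37 to 1.99) and *Osm* 1.77-fold (1.35 to 2.30) higher per UMI in cells with *Il4*, and *Mcpt8* was at 1.02-fold (0.912 to 1.13). Of the heat shock genes, *Dnajb1* was 1.58-fold (1.37 to 1.81) and *Hspa1a* 1.22-fold (1.13 to 1.32) higher with *Il4*, and the immediate early gene *Jun* was at 0.802-fold (0.693 to 0.925). Over 5 other random draws, the *Il6* ratio ranged from 1.56 to 2.21, that of *Osm* from 1.62 to 2.12, that of *Mcpt8* from 1.11 to 1.70, that of *Hspa1a* from 0.917 to 1.14 and that of *Jun* from 0.773 to 0.947. The *Il13* ratio ranged from 0.565 to 22.7. The values of *Mcpt8*, *Hspa1a* and *Il13* thus moved with the draw, and *Dnajb1* was not followed over the other draws. Of 541 genes measured in this split, 8 were over 2-fold higher with *Il4* (1.48%) and 18 lower (3.33%). The 10 genes farthest apart were different in other draws, with 0 of them among the farthest 10 in all 5, and are not named. Cells of 1 library are not replicates, and these values describe how the transcripts were shared among them.

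**Figure D4:**
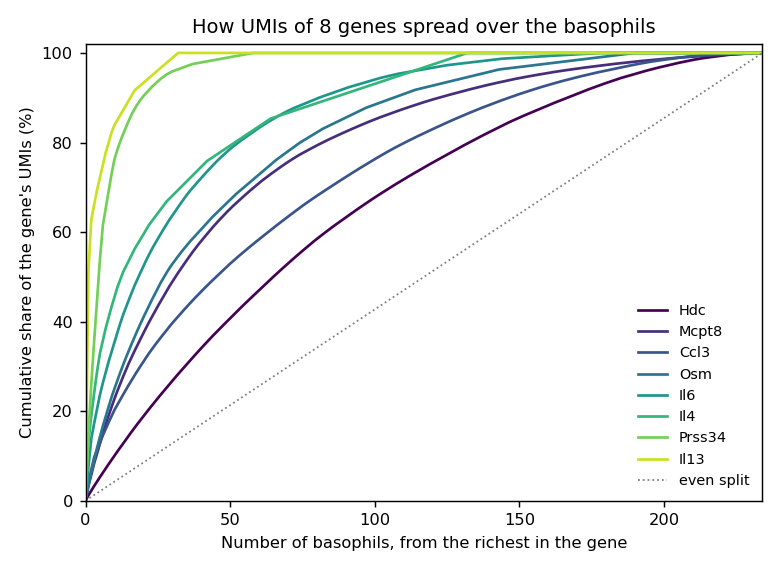
The lines give the cumulative share of a gene's UMIs (vertical axis, %) over the 234 basophils ordered from the richest in that gene (horizontal axis), and the dotted line an even split. *Hdc* lies nearest to the even split, *Il4* and *Il6* are steeper, and *Il13* and *Prss34* come from the fewest cells.

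Surface receptors gave basophils a further set of genes. *Cd200r3*, an activating member of the CD200 receptor family, was at 529 CPM in basophils, 186 in mast cells and 5.87 in the other dermal cells, and basophils held 73.9% of its UMIs. *Itga2b*, the integrin αIIb chain best known from platelets, was at 294 CPM, and basophils held 72.6% of its UMIs. Of 4 platelet markers, *Itga2b* included, 3 had UMIs in basophils and *Gp9* had none. The 4 summed to 564 CPM in basophils, against 1594 in the other dermal cells. Most of the latter was *Pf4*, also listed as a macrophage marker, at 1579 CPM there and 263 in basophils. *Itga2b* itself went the other way, at 294 CPM in basophils against 3.49. *Cd9*, a tetraspanin, was at 1672 CPM against 142 in mast cells, and *Cd69*, an early activation marker, at 339 against 39.1. Of the 23 genes in the surface receptor list, 20 were measured against the other dermal cells, with 11 over 2-fold higher and 5 lower (all genes 9.23% and 27.9%). The median log2 ratio was 1.39, and that of all genes −0.40. Among adhesion genes, *Itga2*, which encodes CD49b, was found in 12.0% of basophils at 26.7 CPM, against 1.21 in the other dermal cells. In this list 8 of 21 genes were over 2-fold higher than in the other dermal cells and 6 lower, against the same shares of all genes.

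Receptors for growth and alarm signals followed. *Csf2rb*, the chain shared by the IL-3, IL-5 and GM-CSF receptors, was at 422 CPM in basophils, 298 in mast cells, 96.3 in the whole gate and 75.6 in the other dermal cells. It has a close copy, *Csf2rb2*, at 198 CPM in basophils, and the split of reads between them is uncertain. *Il3ra*, the IL-3 binding chain, was at 95.9 CPM against 22.6 in the other dermal cells. Against mast cells, *Il3ra* and *Csf2rb2* were within 2-fold (log2 ratios 0.35 and 0.12). Against the whole gate both were over 2-fold higher in basophils (1.91 and 2.46). The IL-18 receptor genes *Il18r1* and *Il18rap* were at 123 and 143 CPM in basophils and at 14.6 and 19.5 in mast cells. *Il1rl1*, which encodes the IL-33 receptor ST2, was at 50.02 CPM in basophils and 312 in mast cells, 6.25-fold higher there (4.32 to 9.04), but at 43.8 in the whole gate, where the ratio of 1.14 (0.8001 to 1.62) was not separable from 1 by counting error. Of the 37 cytokine and growth factor receptor genes, 34 were measured against the other dermal cells, with 8 higher and 15 lower (all genes 9.23% and 27.9%). In the list of 43 chemoattractant, neuropeptide and innate receptors, 34 were measured, with 10 higher and 17 lower against the same shares. The prostaglandin E receptor *Ptger3* was among the higher ones (95.9 against 1.78 CPM), as were the complement receptors *C5ar1* and *C3ar1*, and the Toll-like receptor genes *Tlr1*, *Tlr2*, *Tlr4*, *Tlr7* and *Tlr8* were among the lower ones.

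Some other transcription factor genes differed between basophils and mast cells. *Cebpa*, which promotes granulocyte fates, had UMIs in 101 basophils (162 CPM) and none in mast cells, whose floor of 3 counts was 14.6 CPM. *Cebpb* was at 2771 CPM in basophils and 693 in mast cells, and *Runx1* at 200 and 63.5. *Hes1*, a target of Notch signalling, was at 5.84 CPM in basophils and 220 in mast cells. *Gata3*, the factor of type 2 lymphocytes, was found in 2 basophils. Of the 30 lineage factors listed, 27 were measured against the other dermal cells, with 9 over 2-fold higher and 5 lower (all genes 9.23% and 27.9%). Against mast cells, 12 were measured, with 7 higher and 1 lower (all genes 19.2% and 16.7%).

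The genes farthest above the whole mast cell gate, leaving out those of the rule, were *Alox15*, *Grm6*, *Prss34*, *Csrp3*, *Asb2*, *Wdr95*, *Klf5*, *Serpinb2*, *Perp* and *P2ry1*. *Grm6*, a glutamate receptor best known from the retina, had UMIs in 93 basophils (129 CPM) and none in the gate, a ratio of at least 74.7. *Csrp3*, a muscle LIM protein gene, had UMIs in 132 basophils at 233 CPM against 1.13 in the other dermal cells. The genes farthest below were *Gchfr*, *Mrgprb1*, *Tph1*, *Tpsab1*, *Tpsg1*, *Il17f*, *Rprm*, *Ccl7*, *Sapcd1* and *Ctla2a*. Since the gate was a mixture, as given above, a place in this list does not make a gene one of mast cells. *Mrgprb1*, of the Mas-related receptor family, had 1 UMI in basophils and 120 in mast cells, and *Tph1*, which begins serotonin synthesis, 2 and 137. In all, 517 of 4816 genes were over 2-fold higher (10.7%) and 1032 lower (21.4%) than in the whole gate. Against mast cells alone the split was 511 higher and 444 lower of 2657. Against the other dermal cells, *Fam110c*, *Il4*, *Ms4a2*, *Cd200r3* and *Cyp11a1* joined *Prss34*, *Csrp3*, *Grm6*, *Asb2* and *Alox15* among the 10 farthest above. Farthest below were *Vav3*, *Tmem37*, *Stab1*, *Tmem65*, *Klrk1*, *Mef2c*, *Pxdc1*, *Mrps18b*, *Slc35f6* and *Crabp1*, each with 0 to 9 UMIs in basophils.

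Antigen presentation genes were low. Of 9 genes of MHC class II presentation, 8 were over 2-fold lower in basophils than in the other dermal cells and 0 higher, where 27.9% of all genes were lower and 9.23% higher. *Cd74*, the invariant chain, was at 810 CPM against 4991, and the 5 richest basophils held 50.1% of it. In epidermal basophils it was at 43.9 CPM. Of 16 cell cycle genes, 8 were over 2-fold lower and 0 higher against the same shares, and *Mki67* was found in 5 basophils. Among 21 interferon-stimulated genes, 4 were higher and 9 lower (all genes 9.23% and 27.9%). *Ifitm1* had the most UMIs of them in basophils (12197 CPM against 2021). Among 18 survival and apoptosis genes 4 were higher, among them the kinase gene *Pim1* (979 against 360 CPM), and 4 lower, which is no larger a share than among all genes on the lower side.

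Markers of other cells were also found in the basophils. Monocyte markers summed to 2732 CPM, against 2254 in the other dermal cells, with *Plac8* the most abundant (1318 against 1111 CPM), and endothelial markers to 61.7 against 29.1. Neutrophil markers summed to 7108 CPM in basophils, against 18722 in the other dermal cells, and their most abundant gene, *S100a9*, had 61.6% of its basophil UMIs in 5 cells. The fibroblast gene *Dcn* had 82.7% in 5 cells. Macrophage markers summed to 633 CPM against 3857 and dendritic cell markers to 1491 against 8609. The eosinophil genes *Epx*, *Prg2* and *Il5ra*, the natural killer cell genes *Ncr1*, *Klrb1c* and *Eomes*, and the B cell genes *Cd79a* and *Ms4a1* had no UMI in the 234 cells. Eosinophil markers nevertheless summed to 18.3 CPM against 2.20 in the other dermal cells, with *Ccr3* the most abundant (10.8 against 1.08 CPM). Natural killer cell markers summed to 0.834 CPM against 68.9 and B cell markers to 6.67 against 18.1. ILC2 markers, which include *Il7r*, summed to 168 CPM against 89.2, but *Gata3* had UMIs in 2 cells. RNA from other cells was not subtracted, and its part in genes near these levels was not tested.

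The same rule applied to the epidermal library found 23 cells of 3277, a share of 0.702% (0.445 to 1.05), with a median of 2596 UMIs. They carried the markers outside the rule as well. *Fcer1a* was at 278 CPM, *Ms4a2* at 292, *Gata2* at 979, *Cd200r3* at 862 and *Hdc* at 6330, and *Kit* had no UMI. *Il4* was at 380 CPM (387 in the dermis, ratio 1.02, interval 0.686 to 1.57), and the 23 cells held 26 of 27 *Il4* UMIs in the epidermal library, or 96.3%. *Il6* was at 1374 CPM, and they held 77.7% of its UMIs. *Il13* was at 29.2 CPM from 2 UMIs, under the floor of 3 counts (43.9 CPM), and the 23 cells held 1.89% of its epidermal UMIs. Its higher level in the dermis rested on few cells, 1 of them with 92 UMIs.

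Some genes differed in level between dermal and epidermal basophils. *Prss34* was 2.78-fold (2.31 to 3.34), *Grm6* 3.62-fold (2.39 to 5.32) and *Ccl9* 2.03-fold (1.89 to 2.18) higher in the epidermal cells. The dermal *Prss34* UMIs were unevenly spread over cells, as given above, and the counting interval of its ratio does not cover that spread. *Mcpt8*, at 24428 CPM there against 8125, was used by the rule, which asks for more of it per UMI in shallower cells, and its difference is only a description. Of 9 measured granule genes, 2 were over 2-fold higher in the dermis (*Cpa3* and *Cma1*, the latter limited by the rule), 2 lower (*Mcpt8* and *Prss34*) and 5 within 2-fold. Dermal basophils had 6.73-fold (5.68 to 8.03) more *Hspa1a* and 11.9-fold (7.82 to 18.9) more *Dnajb1*, and of the 20 heat shock and immediate early genes 10 were over 2-fold higher in the dermis and 0 lower, where 16.1% of all 2362 genes were higher and 8.26% lower. *Alox15* was 4.79-fold (1.62 to 23.4) and *Fcer1a* 2.16-fold (1.37 to 3.61) higher in the dermis, and 5 of 6 measured MHC class II genes were higher there. Of 18 measured cytokine and chemokine genes, 6 were higher in the dermis and 1 (*Ccl9*) lower. Keratinocyte markers summed to 5511 CPM in the epidermal basophils and to 6.67 in the dermal ones. Layer, sort, digestion and library cannot be told apart in these values, which rest on 23 epidermal cells.

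**Figure D5:**
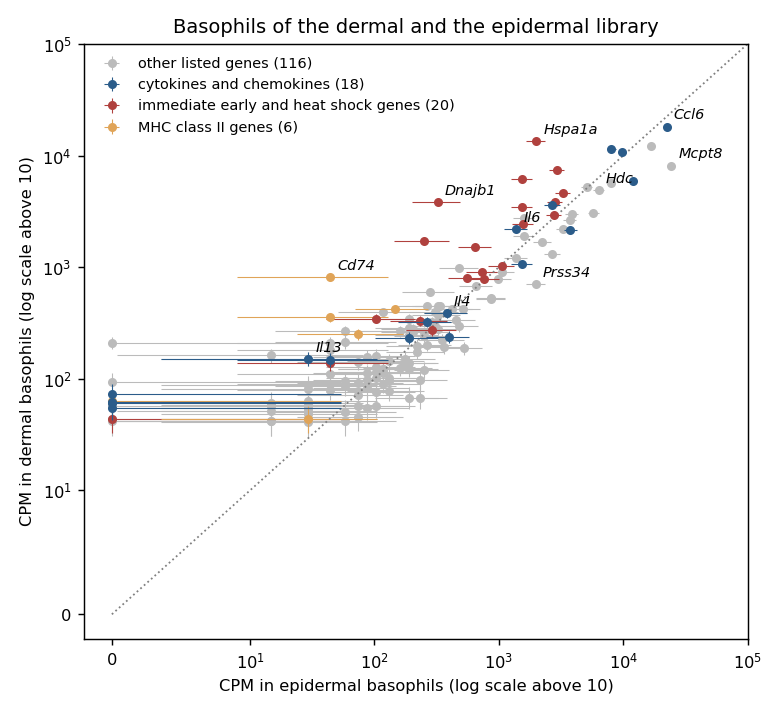
Each point is a listed gene with 50 or more UMIs in the groups together, plotted by its CPM in the 23 epidermal basophils on the horizontal axis and in the 234 dermal basophils on the vertical axis, with 95% Poisson intervals and log scales above 10 CPM. *Il4*, *Il6* and *Hdc* lie near the dotted line of equal levels, *Hspa1a*, *Dnajb1* and *Cd74* above it, and *Mcpt8* and *Prss34* below it.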

How the data were processed

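Per the labels and the study's methods, cells of digested dermis and epidermis were sorted and made into droplet libraries with a 3′ kit. The authors trimmed and counted reads with Cell Ranger 3.0.2 (mm10) and deposited raw UMI counts per gene and barcode, before their filters. Their stated filters differ from the rule used here in a lower limit of mitochondrial UMIs, doublet removal and a requirement of *Ptprc*. Of 31053 gene identifiers, 30934 were found in GENCODE M21 of GRCm38, which gave positions.

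Members were chosen in Python 3.11.15 (scipy 1.17.1, pandas 2.3.3) from the deposited counts. Of the dermal barcodes, 13 were left out for under 200 genes, 26 for over 5000 genes and 628 for over 10% mitochondrial UMIs. Counts were summed over cells, divided by group totals (CPM), and compared as log2 ratios with 0.5 UMI added, where the groups together had 50 UMIs or more, and called past 2-fold. This added count understates the ratio of low genes. Intervals are exact (Clopper-Pearson, Poisson, conditional binomial), at 95%, and cover counting error only, not the spread between cells or mice. Cells were thinned without replacement to 1000 UMIs to compare shares of cells. With 1 library per layer no test was run. Doublets were scored with Scrublet (scanpy 1.11.5) but not removed, except as an alternative. The calculations were tested on simulated data.

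Members, gene lists, gates and alternatives were chosen with earlier results of these data known. Genes of the fixed lists could be named, and beside them the 10 largest and 10 smallest ratios against the mast cell gate and the other dermal cells (a UMI in at least 10% of cells of the higher group, leaving out the rule's genes, mitochondrial, ribosomal, antigen receptor segment and unnamed gene models). The mast cells with at least 10 UMIs were a listed alternative to the gate of at least 3. Some genes of the lists are not reported here.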

Additional observations from a re-analysis of the deposited data

How the results depend on the processing

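No paired analysis was possible because each layer is 1 library. The *Il4* and *Il6* ratios to mast cells were above 1 under the alternatives run, although the interval of the *Il4* ratio to mast cells with at least 10 UMIs (1.30, 0.993 to 1.73) included 1. The balance of genes higher and lower in basophils did not keep its direction. With *Mcpt8* at 2 or more UMIs, which adds cells that mostly lacked other basophil markers, *Il4* was at 235 CPM and its ratio to the mast cell gate 6.28, 17.7% of cells thinned to 1000 UMIs had *Il4*, and 701 genes passed 2-fold against the mast cell gate and 2003 against the other dermal cells. Without the cell richest in *Il4*, the level was 338 CPM. The *Il4* ratio to the whole gate was 1.74 as a mean over cells, against 10.3 from summed UMIs. Genes past 2-fold against the gate numbered 1549, and 955 against mast cells with at least 10 UMIs, 2680 with a minimum of 20 UMIs and 7323 with none. Against the other dermal cells, 4316 passed, and 9210 with no minimum. Against the other dermal cells the split of 1073 higher and 3243 lower became 1737 and 1352 with 3 UMIs added in place of 0.5, and 5566 and 3644 with no minimum. Against the mast cell gate the split of 517 and 1032 became 369 and 332 with *Mcpt8* at 2 or more UMIs, and 511 and 444 for mast cells with at least 10 UMIs, for which *Fcer1a* also turned, from 3.31-fold higher to 2.52-fold lower in basophils, as did *Slc18a2*, *Csf2* and *Srgn*. Requiring *Ptprc* left 84 basophils. The thinned *Il4* share of 23.4% was 16.7% at 500 UMIs, 36.4% at 2000 and 56.4% unthinned.

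*Il6* was added to these results after its level was seen. It was at 1399 CPM, with a ratio to the gate of 22.3, with *Mcpt8* at 2 or more UMIs, at 1610 CPM, with a ratio of 25.6, with *Ptprc* required, at 2045 CPM without the richest cell and at 2313 without the highest doublet scores. Scrublet's own threshold marked 6 cells, so the top 178 scores were removed by rate, 11 basophils among them, which left 223 basophils and *Il4* at 415 CPM. Depth limits the mast cells most, with a median of 875 UMIs.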
